A study of Homo sapiens with 15 samples.

Results

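The 7 genes described here, out of 60675 in the count table, were followed in HT1080 cells, a human fibrosarcoma cell line. NOVA2, KIF5C, NFASC, NMNAT2 and SLC4A8 are genes best known from neurons, and they were chosen by their counts, which differed between wild-type (WT) cells on Tubastatin A and WT cells on PCI-34051. REST and RCOR1 were added for their role, as a repressor of neuronal genes and its corepressor, and not for their values. The 15 libraries form 5 groups of 3 biological replicates. WT_Tub and WT_PCI are WT cells kept for 14 days in 1 μm Tubastatin A, an inhibitor of lysine deacetylase 6 (KDAC6, gene HDAC6), or in 5 μm PCI-34051, an inhibitor of KDAC8 (gene HDAC8). 6CD1m_Tub and 6CD2m_Tub are cells of genotype HDAC6H216A and HDAC6H611A, with a histidine of the first or of the second catalytic domain of KDAC6 changed to alanine, on 1 μm Tubastatin A for 2 days. 8CDm_PCI are cells of genotype HDAC8H143A, in which KDAC8 is catalytically inactive, on 5 μm PCI-34051 for 2 days. All 5 groups received an inhibitor, so levels here are not relative to untreated cells, which are not analysed here. Cell line and duration of treatment changed together between mutant and WT groups, and line and inhibitor changed together between the KDAC6 and KDAC8 mutant groups, so they cannot be told apart in those comparisons.

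REST, the RE1-silencing transcription factor, is a zinc finger protein that binds a DNA element called RE1 near many neuronal genes and keeps them low outside the nervous system. It works through corepressors, among them RCOR1 (CoREST), which brings the histone demethylase KDM1A and the deacetylases HDAC1 and HDAC2 to the site, and SIN3A, which brings deacetylases at the other end of REST. Of the members with neuronal roles, NOVA2 is an RNA-binding regulator of splicing, KIF5C a heavy chain of the motor kinesin-1, NFASC (neurofascin) an adhesion protein of the axon initial segment and of nodes of Ranvier, NMNAT2 an enzyme of NAD synthesis that maintains axons, and SLC4A8 a sodium-driven chloride bicarbonate exchanger.

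The promoter bases of the 5 neuronal genes are shown because REST recognises a sequence and the genes were searched for it. Each line gives the 250 bases before a transcription start, 5′ to 3′ on the gene's strand, from RefSeq windows on GRCh38.p14. Capitals mark the core letters of either arm of the RE1 element, CAGCACC or GGACAG, on either strand. The windows are chr19:45973866-45974115 (minus strand) for NOVA2, chr2:148874977-148875226 (plus) for KIF5C, chr1:204828402-204828651 (plus) for NFASC, chr1:183418381-183418630 (minus) for NMNAT2 and chr12:51424581-51424830 (plus) for SLC4A8.
NOVA2: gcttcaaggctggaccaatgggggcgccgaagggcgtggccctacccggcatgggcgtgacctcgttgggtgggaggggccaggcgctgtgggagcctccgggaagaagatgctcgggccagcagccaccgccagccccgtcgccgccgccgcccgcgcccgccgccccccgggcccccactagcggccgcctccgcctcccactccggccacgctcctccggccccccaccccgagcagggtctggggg
KIF5C: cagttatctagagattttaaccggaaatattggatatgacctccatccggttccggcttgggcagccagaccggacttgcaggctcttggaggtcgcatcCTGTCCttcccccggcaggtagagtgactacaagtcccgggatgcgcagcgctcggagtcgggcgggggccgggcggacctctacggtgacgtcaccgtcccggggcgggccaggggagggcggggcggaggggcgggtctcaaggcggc
NFASC: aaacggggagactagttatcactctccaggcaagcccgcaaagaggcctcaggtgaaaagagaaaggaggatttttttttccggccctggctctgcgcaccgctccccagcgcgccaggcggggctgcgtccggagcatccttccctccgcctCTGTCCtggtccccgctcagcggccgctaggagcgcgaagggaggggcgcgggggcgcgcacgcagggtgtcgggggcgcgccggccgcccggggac
NMNAT2: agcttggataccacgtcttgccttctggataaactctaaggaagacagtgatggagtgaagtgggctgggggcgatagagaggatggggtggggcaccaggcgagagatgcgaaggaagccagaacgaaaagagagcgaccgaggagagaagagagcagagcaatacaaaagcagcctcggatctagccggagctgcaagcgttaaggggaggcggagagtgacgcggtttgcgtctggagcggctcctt
SLC4A8: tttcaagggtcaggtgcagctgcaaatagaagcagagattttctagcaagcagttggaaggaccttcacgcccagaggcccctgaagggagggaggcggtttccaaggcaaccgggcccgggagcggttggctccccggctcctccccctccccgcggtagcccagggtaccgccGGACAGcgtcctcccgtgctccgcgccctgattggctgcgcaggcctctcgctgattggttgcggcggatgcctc

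All 7 members had a window, and 12 windows in all were searched with the 50 bases after the start included. GGACAG was present in 1 window each of KIF5C, NFASC, SLC4A8, REST and RCOR1, and in 20.5% of the 35116 windows of the table. The other arm, CAGCACC, was present only in KIF5C, against 7.75% of all windows, as its reverse complement 11 bases after the start. That stretch, chr2:148875229-148875251, is given with the match in capitals.
KIF5C after the start: agcgcgctGGTGCTGatgcagga
The longer form TTCAGCACC (0.376% of windows) and CAGCACC joined to GGACAG with 2 free bases between them (0.0513%) contain the letters of these arms and were in none of the 12 windows. These letters say nothing about other parts of the genes, and REST binding was not measured.

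Library totals on genes were 10932482 to 19983741, the lowest being those of 6CD1m_Tub (10932482 to 14068276). Levels are given as CPM, a gene's reads for every 1000000 of the library total after TMM scaling, and 3 counts, taken as the detection floor, correspond to 0.152 to 0.253 CPM. Tests were made by edgeR's quasi-likelihood method with all 15 libraries in 1 model. P-values were adjusted by Benjamini-Hochberg over the 19535 genes that passed its filter on low counts, and a gene was called at an adjusted p below 0.001. All 7 members passed the filter. Of 10 markers of fibroblasts and fibrosarcoma cells, 9 were detected and FAP had at most 3 counts in every library, and their summed level was 6070 to 10700 CPM. Of 16 general neuron markers, DCX, SLC17A6 and GAD2 had at most 3 counts in every library, and of 8 epithelial markers this held for EPCAM and CDH1. Other epithelial markers were expressed, with group means of 199 to 253 CPM for KRT8 and 187 to 252 for KRT18. The summed epithelial markers ran from 383 to 408 CPM in WT_Tub and 377 to 434 in WT_PCI. In the mutant groups they ran from 406 to 475 CPM (6CD1m_Tub), 502 to 535 (6CD2m_Tub) and 459 to 490 (8CDm_PCI). The summed neuron markers ran from 293 to 343 CPM in WT_Tub, 205 to 231 in WT_PCI, 233 to 292 in 6CD1m_Tub, 116 to 129 in 6CD2m_Tub and 171 to 182 in 8CDm_PCI. In WT cells these sums were thus higher on Tubastatin A, the direction that chose the members, and their part in the values below was not tested. NCAM1 and TUBB3 made up most of each sum, with means of 158 and 134 CPM in WT_Tub and of 99.1 and 97.3 CPM in WT_PCI.

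**Figure D1:**
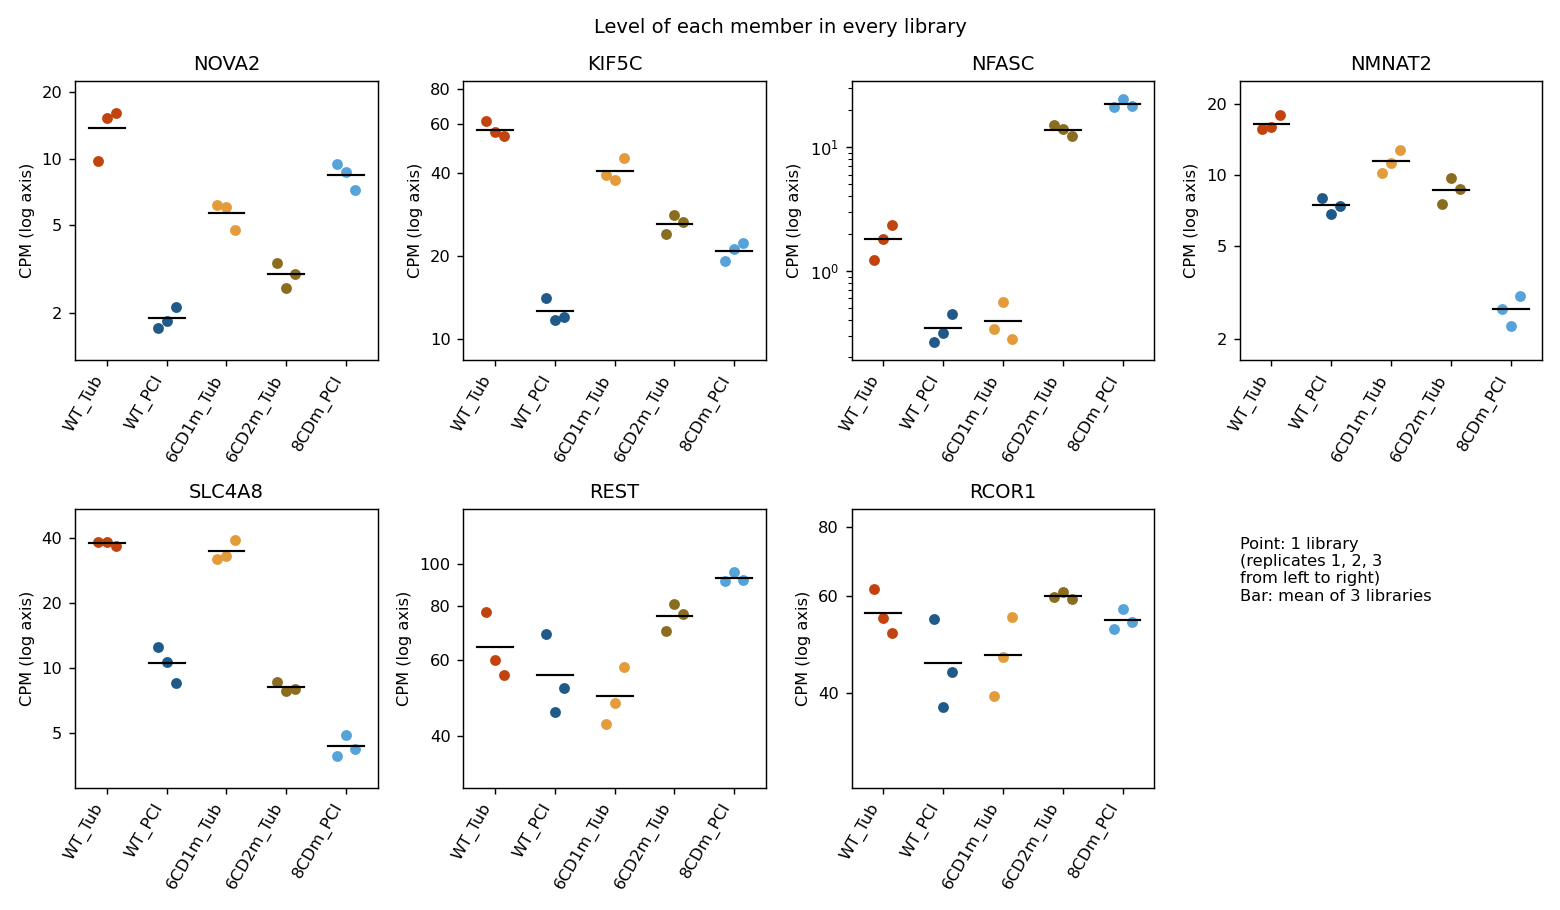
CPM of the 7 members (y axis, logarithmic, its range set for each gene) in the 15 libraries by group (x axis), with points for libraries and bars for the mean of 3. The 5 neuronal genes sit higher in WT_Tub than in WT_PCI, NFASC is between 12.4 and 24.5 CPM in 6CD2m_Tub and 8CDm_PCI and at most 2.37 CPM elsewhere, and REST and RCOR1 vary by less than 2-fold between group means.

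NOVA2 (ENSG00000104967) lies on the minus strand of chr19:45933734-45973546. Its level was 9.78, 15.3 and 16.1 CPM in the WT_Tub libraries and 1.71, 1.83 and 2.13 in those of WT_PCI. In the mutant lines it was 6.15, 6.04 and 4.74 CPM in 6CD1m_Tub, 3.37, 2.58 and 3.00 in 6CD2m_Tub, and 9.45, 8.67 and 7.19 in 8CDm_PCI. No library of one group reached the range of another, so the order was WT_Tub, 8CDm_PCI, 6CD1m_Tub, 6CD2m_Tub and WT_PCI, with 7.26-fold between the highest and lowest group means. Replicate 1 of WT_Tub was well below the other libraries of its group. The inhibitor groups were therefore not separated across lines, since the KDAC8 mutant on PCI-34051 was above both KDAC6 mutants on Tubastatin A.

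KIF5C (ENSG00000168280, chr2:148875250-149026759, plus strand) was at 61.3, 56.1 and 54.3 CPM in WT_Tub and at 14.0, 11.8 and 11.98 in WT_PCI. Its levels were 39.1, 37.5 and 45.3 CPM in 6CD1m_Tub, 23.9, 28.0 and 26.5 in 6CD2m_Tub, and 19.1, 21.1 and 22.2 in 8CDm_PCI. Here all 3 groups on Tubastatin A lay above both groups on PCI-34051, without overlap between neighbouring groups. The margin was narrow between 6CD2m_Tub and 8CDm_PCI, whose nearest libraries had 23.9 and 22.2 CPM. In 6 libraries the deposited count of KIF5C was not whole, which happens where reads are divided between genes.

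NFASC (ENSG00000163531, chr1:204828651-205022822, plus strand) had the widest range of the members, 65.2-fold between group means. It was at 21.2, 24.5 and 21.7 CPM in 8CDm_PCI and at 15.04, 14.0 and 12.4 in 6CD2m_Tub. WT_Tub libraries had 1.22, 1.82 and 2.37 CPM. The lowest levels were 0.336, 0.561 and 0.279 CPM in 6CD1m_Tub and 0.267, 0.316 and 0.451 in WT_PCI, from 4 to 8 and 5 to 7 counts per library. These last groups overlapped and were close to the floor, so they could not be ranked. The difference between WT_Tub and WT_PCI that chose NFASC was 5.19-fold. On the same inhibitor, 6CD2m_Tub was 7.66-fold above WT_Tub and 8CDm_PCI 64.6-fold above WT_PCI, with line and duration changing together. Counts per library were 22 to 41 in WT_Tub, 223 to 276 in 6CD2m_Tub and 372 to 452 in 8CDm_PCI.

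NMNAT2 (ENSG00000157064, chr1:183248237-183418602, minus strand) was at 15.6, 16.0 and 17.97 CPM in WT_Tub and at 8.00, 6.83 and 7.41 in WT_PCI. In 6CD1m_Tub it was at 10.2, 11.3 and 12.8 CPM, in 6CD2m_Tub at 7.52, 9.73 and 8.68, and in 8CDm_PCI at 2.68, 2.28 and 3.06. The 8CDm_PCI libraries were the lowest and WT_Tub the highest, 6.19-fold apart in their means, while 6CD2m_Tub overlapped WT_PCI. In 8 libraries its deposited count was not whole.

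SLC4A8 (ENSG00000050438, chr12:51391317-51515763, plus strand) was at 38.2, 38.3 and 36.6 CPM in WT_Tub and 12.5, 10.7 and 8.56 in WT_PCI. It reached 31.8, 33.1 and 38.9 CPM in 6CD1m_Tub, 8.64, 7.80 and 8.01 in 6CD2m_Tub, and 3.93, 4.93 and 4.24 in 8CDm_PCI. WT_Tub and 6CD1m_Tub overlapped at the top and WT_PCI and 6CD2m_Tub in the middle, with 8CDm_PCI apart below. Exons of SLC4A8 overlap those of GALNT6 on the opposite strand, and whether the counting used strand is not given in the sources used here, so reads in the shared part cannot be told apart. The mean level of GALNT6 was 86.1 ± 0.519 CPM (SD, n = 3) in WT_Tub, 68.2 ± 2.55 in WT_PCI, 93.4 ± 3.63 in 6CD1m_Tub, 44.9 ± 2.52 in 6CD2m_Tub and 58.2 ± 1.71 in 8CDm_PCI. Like SLC4A8, GALNT6 was higher in WT_Tub than in WT_PCI and higher in 6CD1m_Tub than in 6CD2m_Tub and 8CDm_PCI, while 8CDm_PCI was above 6CD2m_Tub for GALNT6 and below it for SLC4A8.

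REST (ENSG00000084093, chr4:56907876-56966678, plus strand) was at 77.2, 59.8 and 55.2 CPM in WT_Tub and 68.6, 45.5 and 51.5 in WT_PCI. The levels were 42.6, 47.8 and 57.7 CPM in 6CD1m_Tub, 69.7, 80.5 and 76.3 in 6CD2m_Tub, and 91.3, 95.6 and 91.5 in 8CDm_PCI. The 8CDm_PCI libraries were above all others and 6CD1m_Tub had the lowest mean, 1.88-fold below, with overlap between each of the other neighbouring groups. In both WT groups replicate 1 was the highest library. An exon of REST overlaps NOA1 on the opposite strand, whose group means were between 37.7 and 47.0 CPM.

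RCOR1 (ENSG00000089902, chr14:102592661-102730576, plus strand) was at 61.7, 54.6 and 51.4 CPM in WT_Tub and 54.5, 37.6 and 43.7 in WT_PCI. The other groups had 39.4, 46.5 and 54.9 CPM (6CD1m_Tub), 59.8, 61.1 and 59.2 (6CD2m_Tub) and 52.2, 56.7 and 53.8 (8CDm_PCI). Every group overlapped its neighbour in the order, and the highest and lowest means differed 1.33-fold. Per kilobase of annotated exon, the mean level of RCOR1 was 7.29 to 9.68 CPM and that of REST 6.18 to 11.6. On this scale KIF5C was at 1.37 to 6.21, NMNAT2 at 0.373 to 2.31, SLC4A8 at 0.243 to 2.10, NOVA2 at 0.217 to 1.58 and NFASC at 0.0162 to 1.06, so in each group the repressor and its corepressor exceeded every neuronal member per unit length.

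In WT cells, the difference on which the neuronal members were chosen is given without a test. The log2 fold change of WT_Tub over WT_PCI was 2.86 (SE 0.22) for NOVA2, 2.37 (SE 0.31) for NFASC, 2.18 (SE 0.11) for KIF5C, 1.83 (SE 0.14) for SLC4A8 and 1.16 (SE 0.15) for NMNAT2, the smallest of the 5. Across all genes 0.420% were called in this comparison, and no reading of the members' count is made from it. With the WT libraries paired by replicate number, NMNAT2 differed by 0.97, 1.23 and 1.28 and NOVA2 by 2.52, 3.06 and 2.92 on the log2 scale. REST and RCOR1, which the choice did not use, were also higher in WT_Tub in 3 of 3 pairs, but the differences did not pass the test. REST had a log2 fold change of 0.21 (SE 0.16, edgeR adjusted p = 0.36) and RCOR1 one of 0.30 (SE 0.13, edgeR adjusted p = 0.15). Neither was called by DESeq2, and 1 of these genes had an unadjusted edgeR p below 0.05. With offsets for GC content the REST value turned to -0.03, so it had no stable direction.

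**Figure D2:**
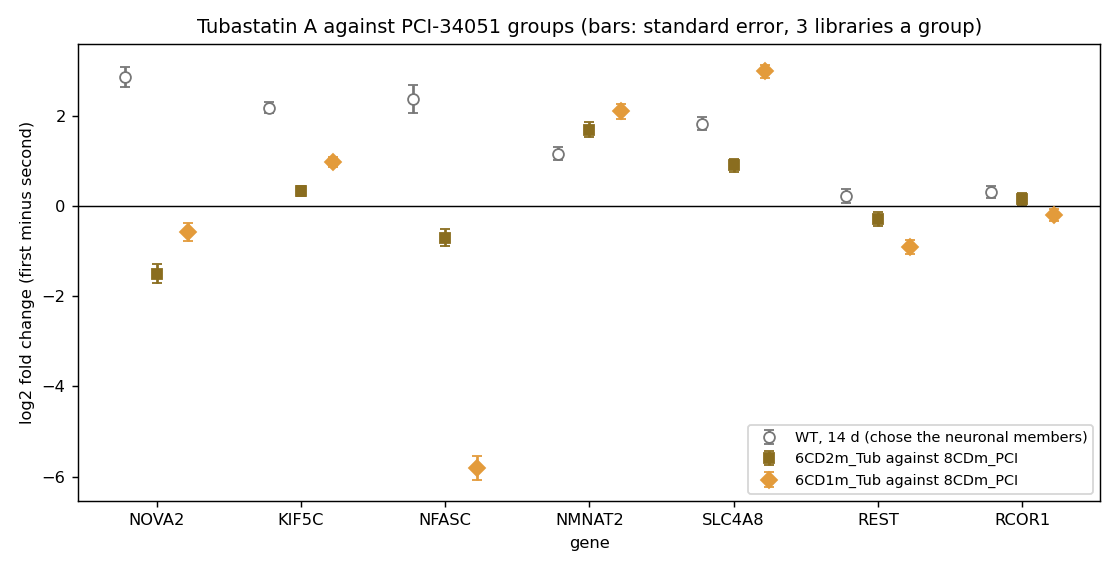
Log2 fold change of the group on Tubastatin A over the group on PCI-34051 (y axis) for each member (x axis), in WT cells (open circles, the difference that chose the neuronal genes), for 6CD2m_Tub against 8CDm_PCI (squares) and for 6CD1m_Tub against 8CDm_PCI (diamonds), with bars of 1 SE. NMNAT2, SLC4A8 and KIF5C are above 0 in each comparison, and NOVA2 and NFASC change sign, down to -5.80 for NFASC.

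The rule that chose the neuronal genes did not use the mutant libraries, though earlier results of these data were known. The same genes were tested between the KDAC6 and KDAC8 mutant groups. Line and inhibitor changed together there, so a difference cannot be assigned to the inhibitor. Between 6CD2m_Tub and 8CDm_PCI, NMNAT2 and SLC4A8 were higher in 6CD2m_Tub, the direction of WT_Tub over WT_PCI, and NOVA2 was lower. With edgeR 3 of the 5 neuronal genes were called, 2 higher and 1 lower, where 9.96% of all genes were called (5.60% higher and 4.37% lower). NMNAT2 had a log2 fold change of 1.69 (SE 0.16, adjusted p = 1.2e-06) and SLC4A8 one of 0.90 (SE 0.15, adjusted p = 0.00029). NOVA2 was 2.83-fold lower in 6CD2m_Tub (log2 fold change -1.50, SE 0.21, edgeR adjusted p = 6.3e-05). KIF5C at 0.33 (SE 0.11, edgeR adjusted p = 0.038) and NFASC at -0.70 (SE 0.18, edgeR adjusted p = 0.0087) did not pass, although neither gene's groups overlapped. NFASC passed when only these 6 libraries were fitted (adjusted p = 9.7e-05). REST (-0.30, SE 0.15, edgeR adjusted p = 0.19) and RCOR1 (0.15, SE 0.13, edgeR adjusted p = 0.48) did not pass either, also not with DESeq2 or at an unadjusted edgeR p below 0.05. The SLC4A8 call was lost with the replicate number as a block (adjusted p = 0.0012) and on leaving out any 6CD2m_Tub library or 8CDm_PCI replicate 1 or 3 (0.0013 to 0.0030), and the NOVA2 call when all libraries were thinned to the smallest total (0.0011).

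Set against the same 8CDm_PCI libraries, 6CD1m_Tub cells differed in SLC4A8, NMNAT2, KIF5C and NFASC. SLC4A8 was 7.91-fold higher in 6CD1m_Tub (log2 fold change 2.98, SE 0.15, edgeR adjusted p = 1.4e-09), NMNAT2 4.27-fold (2.09, SE 0.16, adjusted p = 1.8e-07) and KIF5C 1.95-fold (0.97, SE 0.11, adjusted p = 1e-05). NFASC was 55.8-fold lower (log2 fold change -5.80, SE 0.27, edgeR adjusted p = 8.6e-10), and NOVA2 at -0.58 (SE 0.20, adjusted p = 0.035) did not pass. With GC offsets NOVA2 passed, at -0.89 (adjusted p = 0.00081), and with GC offsets and the replicate block it did not (-0.89, adjusted p = 0.0026). This made 4 of the 5 neuronal genes called, 3 higher and 1 lower, where 11.1% of all genes were called (5.99% higher and 5.07% lower). Leaving out each library in turn kept these 4 calls. REST was 1.88-fold lower in 6CD1m_Tub than in 8CDm_PCI (log2 fold change -0.91, SE 0.16, edgeR adjusted p = 0.0004), while RCOR1 at -0.21 (SE 0.13, adjusted p = 0.24) was not called. The REST call was lost with the replicate block (adjusted p = 0.0014) and on leaving out 6CD1m_Tub replicate 1 or 2 or any 8CDm_PCI library (0.0020 to 0.0036), and kept with GC offsets (log2 fold change -0.68, adjusted p = 5e-05) and with GC offsets and the block together (0.00023). This comparison and the preceding one share the 8CDm_PCI libraries.

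The 2 KDAC6 mutant lines were on the same dose of the same inhibitor for the same time, so by design only the line differs. Library totals differed as well, at 10932482 to 14068276 in 6CD1m_Tub and 16527907 to 19836664 in 6CD2m_Tub. Without untreated libraries, a difference between the lines cannot be told apart from a difference in their response to the inhibitor. Of the 5 neuronal genes 3 were called, with 13.2% of all genes called (6.54% higher in 6CD1m_Tub and 6.65% lower). NFASC was 34.3-fold lower in 6CD1m_Tub than in 6CD2m_Tub (log2 fold change -5.10, SE 0.27, edgeR adjusted p = 5.5e-09). SLC4A8 was 4.25-fold higher (2.09, SE 0.14, adjusted p = 3.9e-08) and KIF5C 1.55-fold higher (0.64, SE 0.11, adjusted p = 0.00037). NOVA2 at 0.92 (SE 0.21, adjusted p = 0.0036) and NMNAT2 at 0.40 (SE 0.15, adjusted p = 0.040) did not pass. REST at -0.61 (SE 0.16, adjusted p = 0.0062) and RCOR1 at -0.35 (SE 0.13, adjusted p = 0.048) were on the lower side in 6CD1m_Tub without a call, and REST passed with DESeq2 (adjusted p = 0.00077) and with no filter (0.00059). With GC offsets the REST value shrank to -0.37 and did not pass (edgeR adjusted p = 0.0061, or 0.012 with the replicate block). It did not pass with the block alone either (0.013). The KIF5C call was lost with the block (0.0015), with a fit of only these 6 libraries (0.0054), with thinning (0.0015) and on leaving out 1 of 8 libraries (0.0011 to 0.0076), namely 6CD1m_Tub replicates 2 and 3 and every 6CD2m_Tub and WT_Tub library.

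Against WT cells on the same inhibitor, REST and RCOR1 could be tested, whereas the neuronal genes share their WT libraries with the rule and are given as values. REST had a log2 fold change of 0.75 in 8CDm_PCI over WT_PCI (SE 0.16, edgeR adjusted p = 0.0017), short of the threshold, with 11.0% of all genes called. It passed with DESeq2 (3.6e-05), upper-quartile scaling (0.00041), no filter (6.3e-05), at least 10 counts in every library (0.00081) and without WT_PCI replicate 1 (0.00021) or 6CD1m_Tub replicate 1 (0.00097), and its value was 0.43 with GC offsets (adjusted p = 0.0029). In 6CD1m_Tub over WT_Tub it was -0.38 (SE 0.16, adjusted p = 0.12), where 0.793% of all genes were called, and in 6CD2m_Tub over WT_Tub 0.24 (SE 0.15, adjusted p = 0.27), where 11.8% were called. RCOR1 was called in none of the 3 comparisons, with values of 0.26, -0.25 and 0.10 in that order (adjusted p = 0.15, 0.21 and 0.61 by edgeR). Among the neuronal genes, NFASC had the largest values, 6.01 (SE 0.27) in 8CDm_PCI over WT_PCI and 2.94 (SE 0.21) in 6CD2m_Tub over WT_Tub, against -2.16 (SE 0.32) in 6CD1m_Tub over WT_Tub. NMNAT2 and SLC4A8 were below the WT group on the same inhibitor in each of the 3 mutant lines, with log2 fold changes of -0.53, -0.93 and -1.47 for NMNAT2 and -0.12, -2.21 and -1.28 for SLC4A8 in 6CD1m_Tub, 6CD2m_Tub and 8CDm_PCI. The libraries of 6CD1m_Tub and WT_Tub overlapped for SLC4A8.

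Of 23 corepressors and regulators of REST, 22 were tested and none was called between WT_Tub and WT_PCI by edgeR or by DESeq2, while 11 had an unadjusted edgeR p below 0.05 (median log2 fold change 0.01, all genes 0.01). The median of all genes was -0.01 between 6CD2m_Tub and 8CDm_PCI and 0.05 for 6CD1m_Tub against either of these groups. Medians of this list changed sign in 5 of the 7 comparisons with upper-quartile scaling, DESeq2 or GC offsets, and no direction of the whole list is read from them. CTDSP1, a phosphatase that stabilises REST, was lower in 6CD2m_Tub than in 8CDm_PCI (log2 fold change -0.60, SE 0.10, edgeR adjusted p = 0.00036), the single call there, with a list median of -0.24. Between 6CD1m_Tub and 8CDm_PCI the list median was -0.07. Between 6CD1m_Tub and 6CD2m_Tub, CTDSP1 (0.66, SE 0.10, edgeR adjusted p = 0.00015) and HMG20B (0.70, SE 0.11, adjusted p = 0.00022), a subunit of the CoREST complex, were higher in 6CD1m_Tub, with a list median of 0.19. CTDSP1 and HMG20B were also called between 6CD2m_Tub and WT_Tub, in which they were lower in 6CD2m_Tub. Between 6CD1m_Tub and WT_Tub edgeR and DESeq2 called none, and 4 genes had an unadjusted edgeR p below 0.05. In 8CDm_PCI against WT_PCI, USP15, a deubiquitinase of REST, was higher (1.014, SE 0.14, edgeR adjusted p = 6.9e-05). In the comparisons of mutant lines edgeR called 4.55%, 4.55% and 13.6% of the 22, where 9.96%, 11.1% and 13.2% of all genes were called. The order is 6CD2m_Tub against 8CDm_PCI, 6CD1m_Tub against 8CDm_PCI and 6CD1m_Tub against 6CD2m_Tub. Against WT cells it called none, 13.6% and 9.09% in 6CD1m_Tub, 6CD2m_Tub and 8CDm_PCI, where 0.793%, 11.8% and 11.0% of all genes were. No reading of the list is made from these shares.

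Of 30 textbook REST targets, 17 passed the filter and 6 had at most 3 counts in every library (STMN2, CRH, TAC1, HTR1A, SYT4 and INA). None of the 17 was called between WT_Tub and WT_PCI by edgeR, VGF, BDNF and L1CAM were by DESeq2 (names given after their values were seen), and 6 had an unadjusted edgeR p below 0.05. There their median log2 fold change was 0.28 against 0.01 for all genes and 12 were above 0. Their summed level was higher in WT_Tub, at 403 to 439 CPM, than in WT_PCI, at 320 to 343. It was 294 to 300 CPM in 6CD1m_Tub, 253 to 264 in 6CD2m_Tub and 246 to 273 in 8CDm_PCI. The part of the REST level in these sums was not tested.

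**Figure D3:**
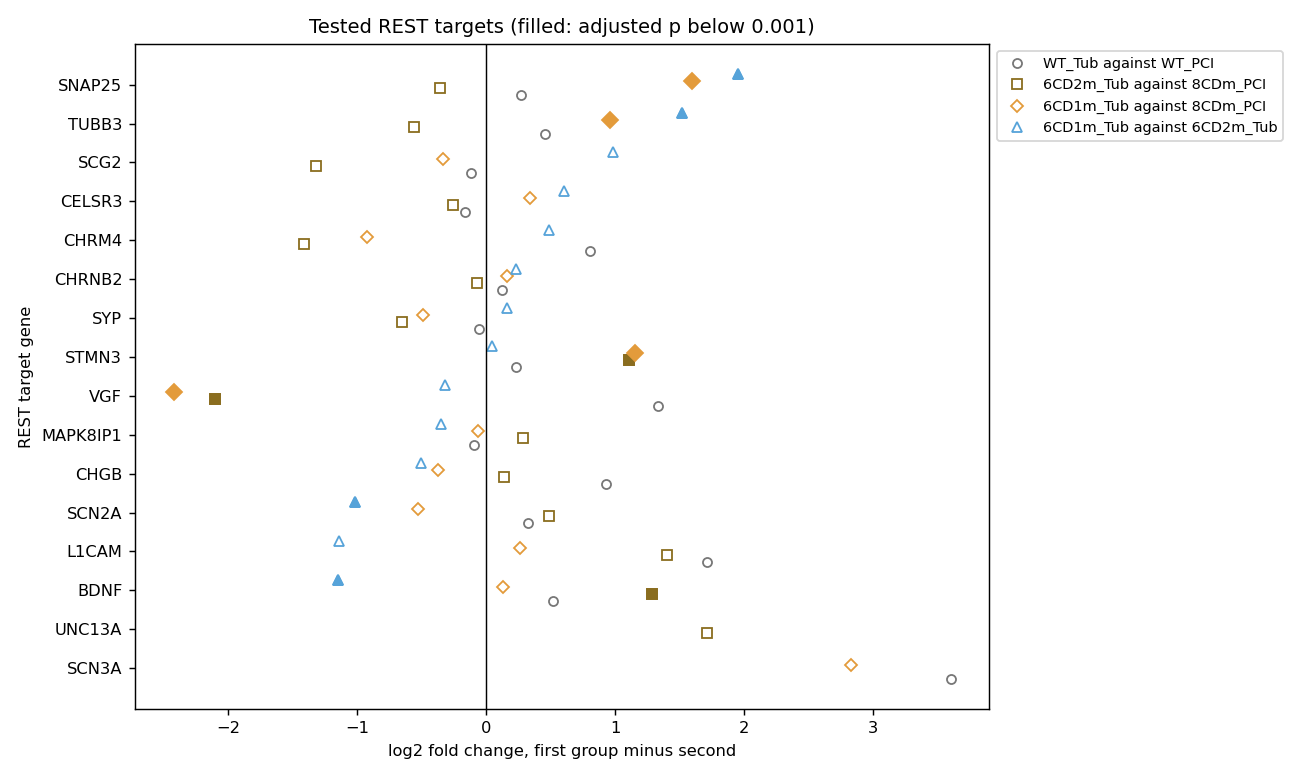
Log2 fold change (x axis) of the tested REST targets (y axis) in 4 comparisons, with the first group named minus the second and filled symbols for an adjusted p below 0.001 by edgeR. Values of a gene in a comparison in which a group had at most 3 counts in every library are left out, and the called genes lie on both sides of 0.

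Between 6CD2m_Tub and 8CDm_PCI, 4 of the 17 targets (23.5%, with 9.96% of all genes) were called, 3 higher and 1 lower (median -0.07). BDNF, a neurotrophin, was at 57.5 ± 3.70 against 23.6 ± 1.54 CPM (SD, n = 3 each, edgeR adjusted p = 5.6e-07), and STMN3, a microtubule-destabilising stathmin, was at 23.4 ± 1.96 against 10.9 ± 0.845 CPM (adjusted p = 1.5e-05). VGF, a secreted neuropeptide precursor, was lower, at 12.4 ± 0.624 against 53.5 ± 5.35 CPM (n = 3 each, edgeR adjusted p = 5e-06). In 6CD1m_Tub against 8CDm_PCI the calls were again 3 higher and 1 lower, with 11.1% of all genes called (median 0.13, or 0.00 with a gene that 1 group lacked at its bound). They were SNAP25 of the synaptic release machinery (1.595, SE 0.15, adjusted p = 2e-06), STMN3 (1.16, SE 0.13, adjusted p = 1.2e-05), the neuronal tubulin TUBB3 (0.96, SE 0.12, adjusted p = 1.8e-05) and, lower, VGF (-2.42, SE 0.23, adjusted p = 2e-06).

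Between 6CD1m_Tub and 6CD2m_Tub, 6 of the 17 targets (35.3%, with 13.2% of all genes) were called, 2 higher and 4 lower (median 0.05). The list's median changed sign in each of these 3 comparisons of mutant lines with DESeq2 or GC offsets. TUBB3 (1.52, SE 0.12, edgeR adjusted p = 2.2e-07) and SNAP25 (1.95, SE 0.16, adjusted p = 3.2e-07) were higher in 6CD1m_Tub. BDNF (-1.15, SE 0.11, adjusted p = 2.2e-06), the sodium channel SCN2A (-1.02, SE 0.12, adjusted p = 1.5e-05) and the vesicle priming factor UNC13A, with 1 to 2 against 36 to 60 counts per library (adjusted p = 6.5e-05), were among those lower. Against WT cells, 2 targets were called in 6CD1m_Tub, both lower (VGF and STMN3), 9 in 6CD2m_Tub (4 higher, 5 lower) and 6 in 8CDm_PCI (3 higher, 3 lower). These were 11.8%, 52.9% and 35.3% of the targets tested, where 0.793%, 11.8% and 11.0% of all genes were called. TUBB3, SNAP25 and STMN3 were lower and L1CAM and SCN2A higher in both 6CD2m_Tub and 8CDm_PCI. The medians were -0.24, -0.29 and 0.24 in that order.

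Relatives of the neuronal members differed widely in level. KIF5B, the kinesin-1 heavy chain of most tissues, was at 162 to 210 CPM in the group means, while KIF5A was at most at 0.122 CPM. NOVA1 had 14 to 19 counts per library in 6CD2m_Tub and at most 3 elsewhere, and NMNAT3 was at most at 0.229 CPM in a group mean. Of 17 relatives, 11 were tested, and edgeR called none between WT_Tub and WT_PCI, DESeq2 called L1CAM, and 7 had an unadjusted edgeR p below 0.05 (median 0.37, or 0.33 with a gene that 1 group lacked at its bound). SLC4A2, an anion exchanger, was higher in both 6CD2m_Tub (1.26, SE 0.14, edgeR adjusted p = 5.6e-06) and 6CD1m_Tub (1.597, SE 0.14, adjusted p = 6.6e-07) than in 8CDm_PCI. NMNAT1, the nuclear NAD synthesis enzyme, was also higher in 6CD2m_Tub than in 8CDm_PCI (1.22, SE 0.14, adjusted p = 1.1e-05), and it was lower in 6CD1m_Tub than in 6CD2m_Tub (-1.80, SE 0.15, adjusted p = 4.4e-07), where SLC4A3 was higher (1.56, SE 0.27, adjusted p = 0.00039). NRCAM, an L1-family adhesion protein related to NFASC, was at 4.97 ± 1.95 CPM in 6CD1m_Tub and 19.5 ± 1.39 in 8CDm_PCI (n = 3 each, edgeR adjusted p = 2.3e-05), the same direction as NFASC. Against WT cells, NMNAT1 and L1CAM were higher and SLC4A4 lower in 6CD2m_Tub, SLC4A2 was lower and NRCAM and L1CAM higher in 8CDm_PCI, and in 6CD1m_Tub no relative was called by edgeR or DESeq2, with 6 at an unadjusted edgeR p below 0.05. In each comparison of mutant lines 2 relatives were called, 18.2% of those tested, where 9.96%, 11.1% and 13.2% of all genes were.

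Partners of the members include channels and adhesion proteins of the axon initial segment with NFASC, kinesin adaptors with KIF5C and axon degeneration genes with NMNAT2. By edgeR 1 of 18 tested (5.56%) was called in each comparison of mutant lines, where 9.96%, 11.1% and 13.2% of all genes were. DESeq2 called 5, 4 and 4 partners, with 2973 of 22525, 3801 of 19759 and 4114 of 21142 genes called in all. No reading of the partners is made from these counts. The medians were 0.02, 0.21 and 0.03 in the order above, the last 2 of them below 0 with GC offsets. With another scaling the list's median changed sign in 4 of the 7 comparisons. In WT cells the sodium channel SCN8A was the single call, at 54.2 ± 4.29 CPM in WT_Tub and 29.6 ± 3.66 in WT_PCI (n = 3 each, edgeR adjusted p = 0.00064). SARM1, the NADase that drives axon degeneration and is restrained by NMNAT2, was higher in 6CD2m_Tub than in 8CDm_PCI (0.77, SE 0.12, adjusted p = 0.00015), as NMNAT2 was. TRAK1, a kinesin adaptor for mitochondria, was higher in 6CD1m_Tub than in 6CD2m_Tub (0.48, SE 0.08, adjusted p = 0.00027), as KIF5C was. Elsewhere TRAK1 did not follow KIF5C. Its mean was 73.0 CPM in 6CD2m_Tub and 91.0 in 8CDm_PCI, opposite to KIF5C, and 103 in WT_Tub and 104 in WT_PCI. NRCAM was the call between 6CD1m_Tub and 8CDm_PCI. In 8CDm_PCI against WT_PCI, CNTN1 (2.95, SE 0.47, adjusted p = 0.00022) and NRCAM (1.96, SE 0.24, adjusted p = 2.1e-05), which bind neurofascin or stand beside it at nodes, were higher and CNTNAP1 lower (-0.50, SE 0.09, adjusted p = 0.00075).

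Of the general neuron markers, 10 of 16 were tested. NEFL, a neurofilament subunit, was the single call between WT_Tub and WT_PCI, at 9.73 ± 0.684 against 4.17 ± 0.365 CPM (n = 3 each, edgeR adjusted p = 0.00038), and the list median was 0.63 against 0.01 for all genes. In 6CD1m_Tub against 8CDm_PCI NEFL went the other way (-1.43, SE 0.15, adjusted p = 5.4e-06), while TUBB3, MAP2 (1.88, SE 0.26, adjusted p = 6e-05) and NCAM1 (0.53, SE 0.10, adjusted p = 0.00083) were higher. NCAM1 was the single call between 6CD2m_Tub and 8CDm_PCI and was lower in 6CD2m_Tub (-0.64, SE 0.10, adjusted p = 0.00016). Between 6CD1m_Tub and 6CD2m_Tub, TUBB3, NCAM1 (1.17, SE 0.10, adjusted p = 5.7e-07) and GAD1 (1.14, SE 0.20, adjusted p = 0.0004) were higher and NEFL lower (-0.997, SE 0.15, adjusted p = 0.00015). Of 9 fibroblast and fibrosarcoma markers tested, 2 (22.2%, with 9.96% of all genes) were called by edgeR between 6CD2m_Tub and 8CDm_PCI. Of these, 1 was higher and 1 lower in 6CD2m_Tub, with a list median of 0.28. FN1 was lower (425 ± 53.0 against 3020 ± 66.0 CPM, n = 3 each, edgeR adjusted p = 2.1e-07). PDGFRB was higher, at 16.4 ± 1.7 against 8.0 ± 1.26 CPM (n = 3 each, DESeq2 adjusted p = 1e-08). In WT cells edgeR and DESeq2 called none of the 9, and 1 had an unadjusted edgeR p below 0.05. No epithelial marker of 5 tested was called by edgeR in any comparison, DESeq2 called KRT18 between 6CD2m_Tub and WT_Tub, and between 0 and 3 had an unadjusted edgeR p below 0.05.

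**Figure D4:**
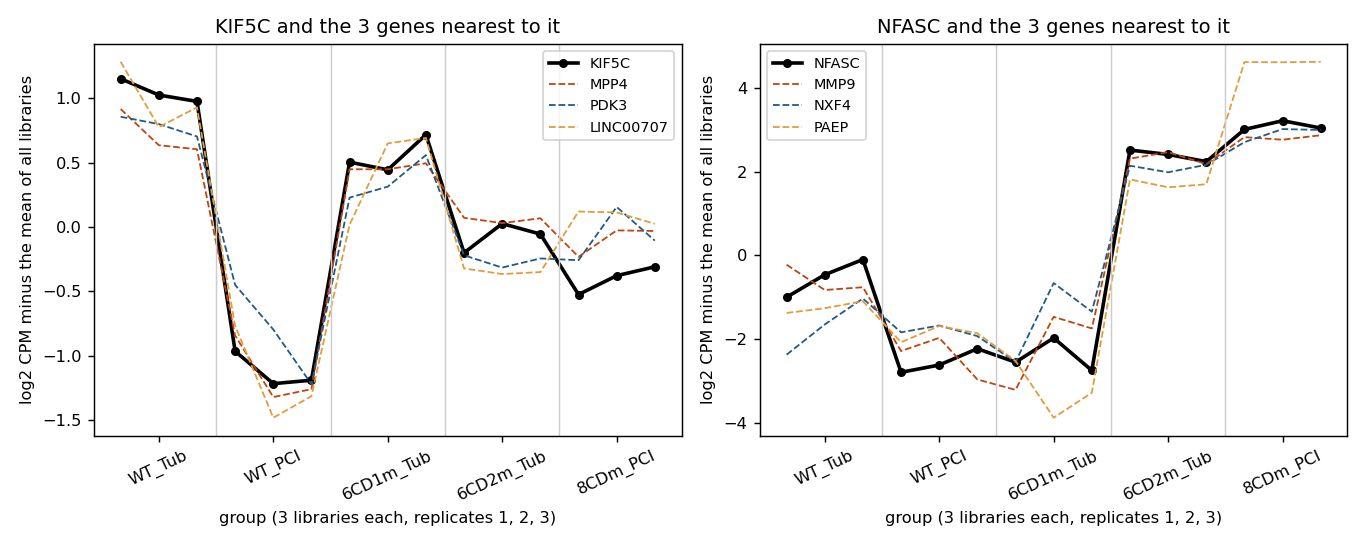
Log2 CPM minus the gene's mean over the 15 libraries (y axis) for KIF5C, NFASC and the 3 genes nearest to each, with libraries along the x axis by group and replicate. KIF5C and MPP4 differ by a root mean square of 0.232 log2 units, and NFASC and MMP9 by 0.541.

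For each neuronal member the 3 nearest genes were sought among the 15906 genes with an average log2 CPM of at least 0, by the root mean square (RMS) difference of their centred log2 CPM over the 15 libraries. Libraries of a group share a line and a treatment, so nearness is a description. The nearest to KIF5C were MPP4 (RMS 0.232), PDK3 (0.297) and LINC00707 (0.317), where KIF5C itself deviated from its mean by 0.761. NMNAT2 was followed by INSIG1 (0.230), PRR5L (0.266) and DIXDC1 (0.298), against its own 0.875. The nearest to NOVA2 were OSBP2 (0.474), RP11-688I9.5 (0.501) and LINC00707 (0.543), against 1.008, and those to SLC4A8 were HIST1H4A (0.448), HIST1H3A (0.450) and RGS4 (0.478), against 1.208. NFASC, with a deviation of 2.37, was nearest to MMP9 (0.541), NXF4 (0.823) and PAEP (1.02). Of all these, LINC00707 was the one gene near more than 1 member, and no member was among the 3 nearest genes of another.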

How the data were processed

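RNA of 15 inhibitor-treated HT1080 libraries in 5 groups was rRNA-depleted, as the study's labels describe. The authors deposited expected counts per gene for 60675 genes, without normalization, and 21.8% of the nonzero values were not whole. The submitters' processing notes name Trimmomatic 0.39, Bowtie2 2.4.5, RSEM 1.3.3, DESeq2 1.38.2 and GRCh38. Strand use and annotation are not given in the sources used here.

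Counts were rounded and analysed with edgeR 4.0.16 in R 4.3.3 (TMM, edgeR's low-count filter, 1 model of all 15 libraries, quasi-likelihood tests, Benjamini-Hochberg adjustment, and calls at the study's rate of 0.001). DESeq2 1.42.0 was an alternative, beside upper-quartile scaling, other filters, an adjusted p below 0.05, fits of 6 libraries, the replicate number as a block, GC offsets, thinning and leaving out each library. Gene positions and exon lengths came from GENCODE 29 on GRCh38, which matched 57055 genes by identifier. The analysis was checked on simulated counts. The members and lists were chosen with earlier results of these data known, so the neuronal genes were not tested between the WT groups.

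Replicate numbers, taken from the labels, were used to pair WT_Tub with WT_PCI. The sample titles give only a number and name no pairing. Deviations of same-numbered libraries from the group means correlated across genes with r of 0.505, 0.235 and 0.169. Correlations of differently numbered libraries were not computed. Replicate 1 was also the deepest library of both WT groups (19409966 reads on genes in WT_Tub and 19983741 in WT_PCI). In the other comparisons at least 1 pair was below 0.1. P-values measure the spread between replicates, which the study calls biological. All members were named, and from each list the called genes with the smallest p, at most 3 per direction, while any relative of a member could be named. Counts and values of other list members were given where a sentence needed them. For nearest genes, log2 CPM used a prior count of 2. Some called genes of the lists are counted but not reported here by name.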

Additional observations from a re-analysis of the deposited data

Results flagged for a closer look

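NOVA2 and NFASC are singled out because every library on Tubastatin A lay above every library on PCI-34051 in WT cells, and below every 8CDm_PCI library in both KDAC6 mutant lines. For NOVA2 the log2 fold change was -1.50 in 6CD2m_Tub against 8CDm_PCI and -0.58 in 6CD1m_Tub against 8CDm_PCI. For NFASC it was -0.70 and -5.80 in the same order. The difference between these effects and that in WT cells was not tested, since the WT libraries chose the genes, and the effects in the mutant lines also contain the difference between lines. Groups of 3 libraries were not examined for single outlying libraries.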

How the results depend on the processing

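The reported values were recomputed under 10 alternatives and with each of the 15 libraries left out. Of 331 values of single genes under the 10 alternatives, 305 kept their direction and side of the threshold (for values without a test, moved by less than 1 SE), and 2 reversed, REST in WT cells with GC offsets, without and with the replicate block (-0.03 each). In WT cells the median log2 fold change of the neuronal genes was 2.18 and became 1.96 with at least 10 counts in every library, a filter that removes NFASC. An adjusted p below 0.05 raised the number of neuronal genes called to 5 in each comparison of mutant lines, from 3, 4 and 3 (6CD2m_Tub against 8CDm_PCI, 6CD1m_Tub against 8CDm_PCI and 6CD1m_Tub against 6CD2m_Tub). Among all genes, 5167, 7355 and 7884 of 19535 were called at 0.05, in the same order. For REST and RCOR1 the number called fell to 0 with the replicate block between 6CD1m_Tub and 8CDm_PCI. It rose from 0 to 2 at 0.05 and to 1 with DESeq2 or no filter between 6CD1m_Tub and 6CD2m_Tub, and to 1 in 8CDm_PCI against WT_PCI at 0.05, with DESeq2, upper-quartile scaling, no filter, or at least 10 counts in every library. In 8CDm_PCI against WT_PCI, 7059 of all 19535 genes were called at 0.05. The calls among list genes, summed over 7 comparisons, rose from 81 to 134 with DESeq2 and were 58 to 94 with a library left out. DESeq2 also called more of all genes in each comparison, such as 670 of 17686 between WT_Tub and WT_PCI, where edgeR called 82 of 19535. Leaving out a library gave 0 to 1 calls for REST and RCOR1 in 6CD1m_Tub against 8CDm_PCI and in 8CDm_PCI against WT_PCI. The cause of these shifts was not tested.

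The replicate block ended the calls of SLC4A8 between 6CD2m_Tub and 8CDm_PCI (adjusted p = 0.0012 by edgeR), REST between 6CD1m_Tub and 8CDm_PCI (0.0014) and KIF5C between 6CD1m_Tub and 6CD2m_Tub (0.0015), and it changed no other call of a member. Between WT_Tub and WT_PCI the block lowered the calls among all 19535 genes from 82 to 27. The calls of SCN8A and NEFL between these groups are from the fit without the block, and their values with it are not given here. In each of the other comparisons at least 1 same-numbered pair correlated below 0.1. Upper-quartile scaling moved the median of all genes to 0.136 for 6CD1m_Tub against 8CDm_PCI and to 0.104 for 6CD1m_Tub against WT_Tub. A count of at most 8 per library limits the precision of NFASC in 6CD1m_Tub and WT_PCI, and floors cover counting error only.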
